A study of Mus musculus with 2 samples.

Results

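The 4 Hox gene clusters of the mouse were examined for regions carrying macroH2A1.1 in C2C12 cells. MacroH2A1.1 is one of the splice forms of a variant of histone H2A. Hox genes encode homeodomain transcription factors that give cells of the embryo their position along the body and limb axes. They lie in tight arrays on separate chromosomes, in an order that follows where and when they are used, and in cells that do not use them they are a textbook target of Polycomb repression. MacroH2A replaces ordinary H2A in the nucleosome, carries a large macrodomain, and is best known from the inactive X chromosome and other silent chromatin.

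The clusters were taken as fixed windows in the genome build mm9. The HoxA window ran from 52.0 to 52.3 Mb on chromosome 6, the HoxB window from 96.0 to 96.3 Mb on chromosome 11, the HoxC window from 102.7 to 102.95 Mb on chromosome 15 and the HoxD window from 74.4 to 74.7 Mb on chromosome 2. A region belonged to a window when it overlapped it by 1 bp or more. By this rule 38 of the 50887 listed regions belonged to the windows, namely 14 to HoxA, 19 to HoxB, 5 to HoxC and 0 to HoxD. The windows stand for 38 member genes, a number that equals that of the regions by coincidence, of which 10 are in HoxA, 10 in HoxB, 9 in HoxC and 9 in HoxD. The list is in mm9 and the annotation at hand is in GRCm38, so the windows were not checked against genes and no gene was placed on a region.

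C2C12 is a long-established line of mouse myoblasts, which form multinucleated myotubes after a change to low serum. The data hold 1 library from chromatin precipitated with an antibody against macroH2A1.1 and 1 library from input chromatin without antibody, both of the genotype Wild Type. The source label of both reads myoblast, whereas the study describes the profile as one of myotubes, and the abbreviation for differentiation medium stands in both short descriptions. A region list without gene names offers no marker to check the cell state, and C2C12 cells is the name used here. With 1 library on each side there is no spread between replicates, no test between groups and no p-value for a difference. Regions had entered the list when ChIP reads exceeded scaled input reads, so every value below describes called regions, and a stretch without a region is a stretch without a call.

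The list contained 4884176 ChIP reads and 1585463 input reads over 20 chromosomes, with medians of 68 and 22 reads per region. The regions of the Hox windows held between 47 and 831 ChIP reads, with a median of 101.5, and between 11 and 278 input reads, with a median of 36.5. Enrichment is given in 2 ways. The raw ratio is ChIP reads over input reads, and the scaled fold is the raw ratio divided by 1.45, the library factor that underlies the fold changes of the list. Intervals are 95% exact (Clopper-Pearson) intervals. They cover counting error only, because they take each read as independent and there is 1 library on each side. PCR copies of a molecule, where left in the counts, are not allowed for.

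The windows differed first in how much of them was covered. These shares belong to the windows, which are longer than the gene spans given below, and not to the clusters alone. Regions covered 98.4 kb or 32.8% of the HoxA window, 76.2 kb or 25.4% of the HoxB window, 42.2 kb or 16.9% of the HoxC window and none of the HoxD window. The order was thus HoxA, HoxB, HoxC and HoxD, and no error between replicates can be attached to it. It depended on the weak regions: among regions with a scaled fold of 2 or more, the covered share was 11.13% in HoxA, 16.3% in HoxB and 16.6% in HoxC, which turned the order of these 3 windows around. In windows narrowed by 50 kb at both ends, the covered share was 24.6% in HoxA, 16.2% in HoxB and 0 in HoxC. All 4 windows together were covered at 18.9%, against 8.66% over all chromosomes.

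Since chromosomes differ in coverage, each window was set beside equally long windows laid end to end along its own chromosome. On chromosome 6 the comparison windows had a median covered share of 1.97%, with quartiles at 0 and 10.1%. The HoxA window was above 466 of these 496 windows. Higher shares occurred within 6 window lengths of it, at 53.7 and 42.4% before it and 47.5, 39.2 and 58.9% after it. The other windows within that distance were lower, down to 5.93%. A high share was thus not particular to the HoxA window. On chromosome 11 the median was 6.77%, with quartiles at 0.45 and 17.2%, and the HoxB window was above 352 of 404 windows. The HoxC window was close to the middle of its chromosome, above 228 of 411 windows with a median of 12.6% and quartiles at 0.92 and 35.7%. The HoxD window shared its lack of regions with 216 of 604 windows of chromosome 2, which is 35.8% of them, so an empty window was common on that chromosome. The highest covered shares among the comparison windows were 85.3% on chromosome 6 from 99700001 to 100000000, 69.2% on chromosome 11 from 111900001 to 112200000, 93.0% on chromosome 15 from 84200001 to 84450000 and 64.9% on chromosome 2 from 147900001 to 148200000. These ranks are descriptions, since windows of a chromosome share both libraries and are not replicates. The comparison windows were not filtered for called bases, so any stretch without sequence in the build counted as empty. Such windows raise the ranks and the share of empty windows. Among comparison windows with a region, the share with less coverage was 89.4% for HoxA, 83.0% for HoxB and 41.5% for HoxC.

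**Figure D1:**
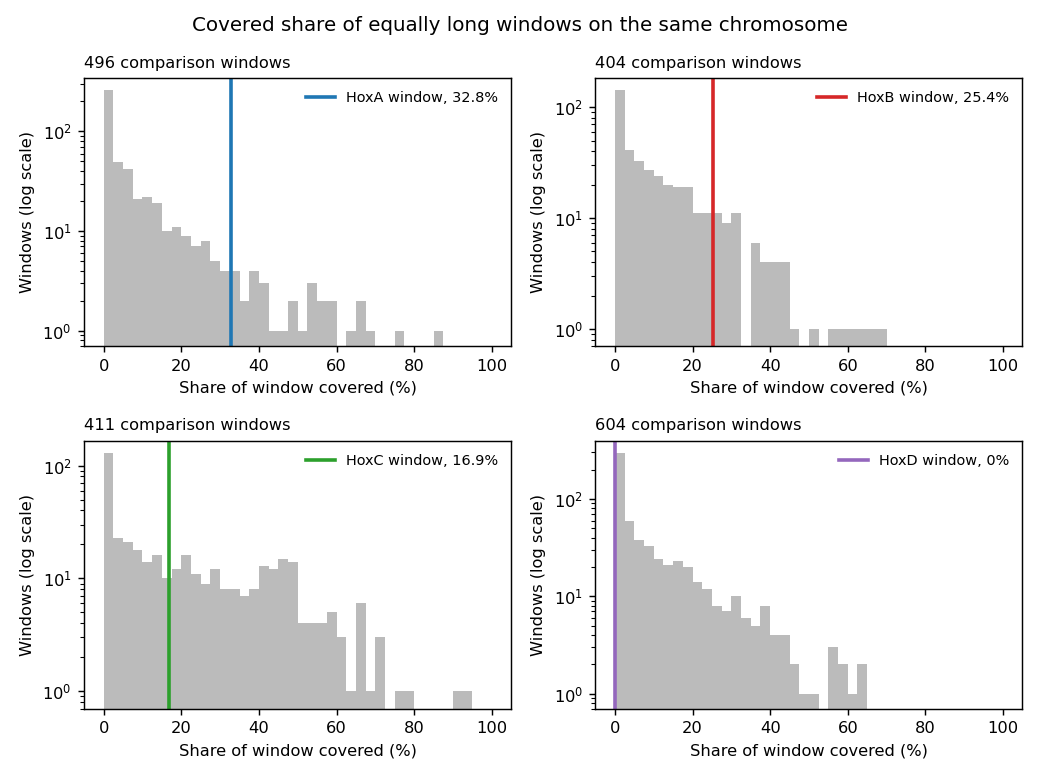
Histograms of the share of each window covered by macroH2A1.1 regions (x axis, percent) for windows as long as the Hox window on the same chromosome, with the number of windows on a log scale (y axis); the coloured line is the Hox window. HoxA (32.8%) and HoxB (25.4%) stand in the upper tail of their chromosomes, HoxC (16.9%) near the middle and HoxD at 0 among 216 other empty windows.

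The covered share hid a marked division within the HoxA and HoxC windows. In the HoxA window, 10 regions lay before a stretch of 122.2 kb without any region and 4 lay after it. The stretch ran from 52093801 to 52216000 on chromosome 6 and took up 40.7% of the window. Before it, 73.1% of 93.8 kb was covered, and after it, 35.5% of 84 kb. In bins of 25 kb from the start of the window, the covered shares of the first 4 bins were 68, 76, 55.2 and 75.2%, the next 4 were at 0, and the last 4 were at 20.8, 45.6, 36 and 16.8%.

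In the HoxC window all covered sequence lay within the first 47.2 kb, of which 5 regions covered 89.4%. The first of them began before the window and reached only 600 bp into it. From 102747201 to 102959600 on chromosome 15 there followed a stretch of 212.4 kb without a region, which filled the remaining 202.8 kb or 81.1% of the window. The first 2 bins of 25 kb were covered at 80 and 88.8% and the other 8 bins at 0.

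The HoxD window lay whole within a stretch of 516.8 kb without a region, from 74228201 to 74745000 on chromosome 2. The closest regions outside it were of 3200 bp each. The region before it, from 74225001 to 74228200, held 50 ChIP and 17 input reads, a scaled fold of 2.03 (1.15 to 3.75). The region after it, from 74745001 to 74748200, held 58 ChIP and 28 input reads, a scaled fold of 1.43 whose interval of 0.895 to 2.33 included 1.

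The HoxB window had no single stretch of such length. Its longest stretch without a region was 39 kb, from 96103001 to 96142000, and regions occurred in 10 of its 12 bins of 25 kb. The next longest, of 38 kb, lay directly before it, and the next stretch after it lasted until a region at 96182001. Only regions of 2800 and 3200 bp parted these stretches. The region of 3200 bp was weak, with a scaled fold of 1.28 (0.863 to 1.92) and a listed FDR of 0.0185, so an FDR limit of 0.01 removes it. Coverage was higher after the longest stretch, at 38.2% of 158 kb, than before it, at 15.3% of 103 kb. The last 3 bins were covered at 44, 58.4 and 74.4%, the highest values of this window, and the first 3 at 8.8, 33.6 and 9.6%.

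**Figure D2:**
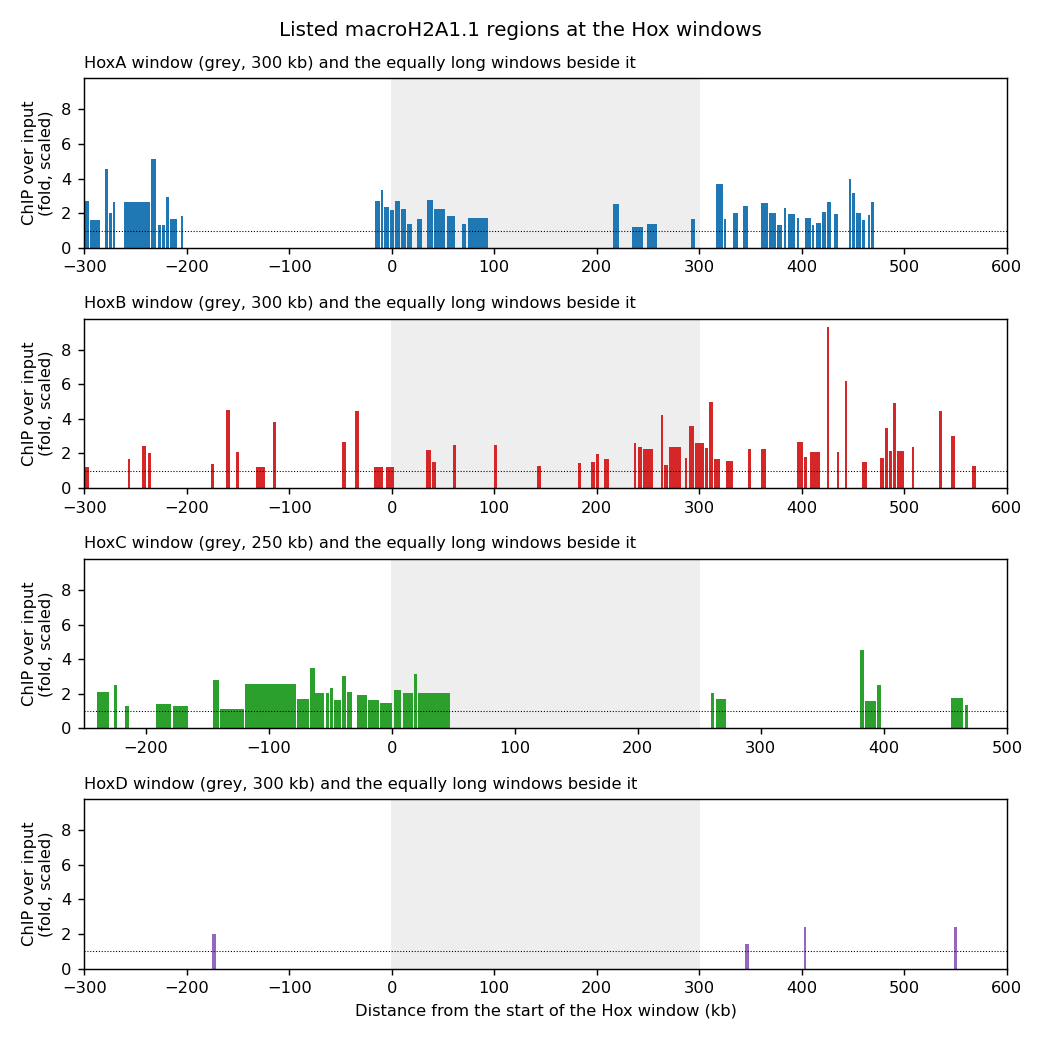
Every listed macroH2A1.1 region in the Hox windows (grey) and in the equally long windows on either side, drawn to scale along the distance from the start of the window in kb (x axis), with the scaled fold of ChIP over input as bar height (y axis; dotted line at 1). The HoxA and HoxC windows hold region-free stretches of 122.2 and 212.4 kb beside closely spaced regions. HoxB holds 19 regions, sparse in the middle of the window and closer together towards its end, and HoxD holds none.

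The lengths of these stretches were read against all separations between neighbouring regions on the same chromosome. The median separation was 5 kb on chromosome 6, 5.4 kb on chromosomes 11 and 2, and 3.6 kb on chromosome 15. The HoxD stretch was longer than 98.8% of the 3604 separations of its chromosome, with 43 longer ones. The HoxC stretch was longer than 98.5% of 3732, with 55 longer ones. The HoxA stretch was longer than 92.7% of 2571, with 187 longer ones, and the HoxB stretch than 84.3% of 2980. Long separations also occurred close by. In the window before HoxA there was a longer one of 187.8 kb, the separation next before the HoxD stretch measured 432 kb, and one of 288 kb began in the window after HoxD.

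**Figure D3:**
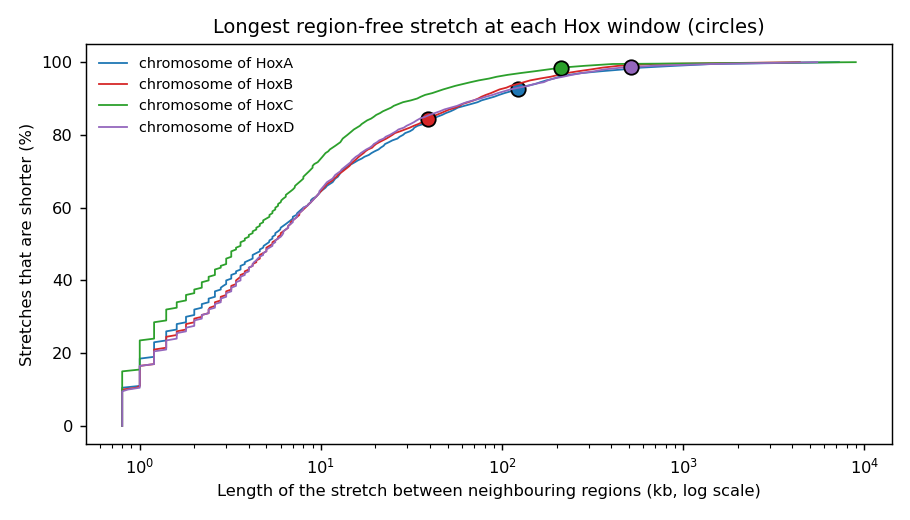
Cumulative share of separations between neighbouring regions (y axis, percent that are shorter) against their length in kb on a log scale (x axis) for the chromosomes of the 4 clusters. The circles mark the longest region-free stretch at each Hox window, at 39 kb for HoxB, 122.2 kb for HoxA, 212.4 kb for HoxC and 516.8 kb for HoxD.

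The HoxA and HoxC stretches each had 1 densely covered flank. This measure was chosen after the profiles had been seen and is a description. In the 100 kb before the HoxA stretch 73.8% was covered, and in the 100 kb after it 29.8%. Among the other 224 stretches of 100 kb or more on chromosome 6, the more densely covered flank had a median of 20.1%, and 2 of them had a denser flank than HoxA. For HoxC, 84.8% of the 100 kb before the stretch and 10.4% of the 100 kb after it were covered. The median over the other 138 long stretches of chromosome 15 was 29%, and 4 had a denser flank. The HoxD stretch was of the opposite kind, with 3.2 and 4.8% covered on its flanks, and 267 of the other 293 long stretches of chromosome 2 had a denser flank.

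The windows next to the clusters were measured in the same way. The window before HoxC was covered at 67.4% by 19 regions and the window after it at 15.6% by 7 regions, so that the HoxC window stood between a dense and a sparse neighbour. The windows before and after HoxA were covered at 27.6 and 29.8%, close to the HoxA window itself. Those around HoxB were covered at 19.5% before and 29.8% after. The windows around HoxD held 1 and 3 regions and were covered at 1.07 and 2.33%.

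The median width of the regions was 5200 bp in HoxA (3200 to 19400 bp), 3600 bp in HoxB (2000 to 11800 bp) and 7800 bp in HoxC (2000 to 26200 bp). The ranges overlapped, and the clusters were not told apart in width. The chromosome medians were 3600 bp on chromosomes 6 and 11 and 4000 bp on chromosome 15. The widest region of HoxC was wider than all but 25 of the 3733 regions of chromosome 15, and that of HoxA than all but 28 of the 2572 regions of chromosome 6. Both ended at the start of the region-free stretch of their window.

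Enrichment within the regions was then compared. The regions of the HoxA window together held 2042 ChIP and 795 input reads, a raw ratio of 2.57 (2.37 to 2.79) and a scaled fold of 1.77 (1.63 to 1.93). Those of the HoxB window held 1989 ChIP and 692 input reads, a raw ratio of 2.87 (2.63 to 3.14) and a scaled fold of 1.98 (1.82 to 2.16). Those of the HoxC window held 1412 ChIP and 494 input reads, a raw ratio of 2.86 (2.58 to 3.17) and a scaled fold of 1.97 (1.78 to 2.19). The 3 intervals overlapped, so the regions of the 3 windows were not told apart in enrichment at this depth. Reads were summed over whole regions, also where a region reached beyond its window. With only the regions whole inside the window, the raw ratios were 2.55 in HoxA, 2.95 in HoxB and 3.05 in HoxC. Over all regions of their chromosomes, the Hox regions included, the raw ratio was 3.28 on chromosome 6 (3.26 to 3.31), 3.11 on chromosome 11 (3.09 to 3.14) and 2.73 on chromosome 15 (2.71 to 2.74). HoxA was below its chromosome by more than the counting error. Its regions held 20.3 ChIP reads per kb against 21.7 over chromosome 6, and 7.92 input reads per kb against 6.60, so that the lower ratio stood beside a higher input density. These intervals leave out the spread between regions. Scaled folds of single regions ran from 1.18 to 2.76 in HoxA and from 1.15 to 32.4 on chromosome 6, and a difference was not tested. The intervals of HoxB and HoxC overlapped those of their chromosomes.

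Among all regions of the list, 61.3% reached a scaled fold of 2, and 20 of the 38 Hox regions did (52.6%). A scaled fold under 1.5 was found in 11.3% of all regions and in 10 of the Hox regions (26.3%). Of these 10 weak regions 4 were in HoxA, 5 in HoxB and 1 in HoxC. The interval of the scaled fold included 1 in 14.6% of all regions and in 8 of the Hox regions (21.1%). When the sampling error of the input was counted with an exact binomial test, 90.1% of all regions and 31 of the Hox regions (81.6%) had a Benjamini-Hochberg FDR of 0.05 or less. The same reads had already selected the regions, so many passes were set in advance. This FDR is therefore a filter and not an error rate. No difference between the Hox regions and the other regions was tested.

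In the HoxA window, the summed reads gave unlike ratios on the sides of the stretch, whose place was taken from these same data. The 10 regions before it had a scaled fold of 1.94 (1.75 to 2.15) from 1417 ChIP and 504 input reads, and the 4 regions after it 1.48 (1.29 to 1.71) from 625 and 291 reads. These intervals did not overlap, but they leave out the spread between regions. Single regions ranged from 1.35 to 2.76 before the stretch and from 1.18 to 2.53 after it. The ranges overlapped, and a difference between the sides was not tested. The regions before and after the stretch held 20.1 and 21.0 ChIP reads per kb and 7.14 and 9.77 input reads per kb. The lower ratio after the stretch thus stood beside a higher input density and no lower ChIP density. The widest region, from 52074401 to 52093800, held 363 ChIP and 144 input reads, a raw ratio of 2.52 (2.07 to 3.08). The highest raw ratio, 4.0 (2.80 to 5.84), was that of the region from 52034401 to 52040400 with 156 ChIP and 39 input reads. The lowest, 1.71 (1.34 to 2.17), was that of the region from 52234801 to 52245000 after the stretch, with 191 ChIP and 112 input reads. The first region after the stretch, from 52216001 to 52221200, was not weak, with 147 ChIP and 40 input reads and a scaled fold of 2.53 (1.78 to 3.69).

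In the HoxB window, the 5 regions before the longest stretch had a scaled fold of 1.65 (1.38 to 1.98) and the 14 after it 2.09 (1.89 to 2.32), with intervals that overlapped. Input reads per kb were similar, at 8.16 and 8.01. The highest raw ratio of any Hox region was found here, 6.09 (3.20 to 12.8) in a region of 2000 bp from 96262401 to 96264400 with 67 ChIP and 11 input reads. This was the only Hox region with a scaled fold over 4, at 4.20 (2.20 to 8.82). The widest region, from 96270401 to 96282200, held 335 ChIP and 98 input reads, a scaled fold of 2.36 (1.88 to 2.98). The lowest raw ratio, 1.77 (1.34 to 2.35), was that of the region across the start of the window, from 95994601 to 96002200, with 147 ChIP and 83 input reads.

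The 5 regions of the HoxC window formed a chain. The first, from 102690601 to 102700600, reached only 600 bp into the window and held 215 ChIP and 102 input reads, a scaled fold of 1.45 (1.14 to 1.86). The second, from 102701601 to 102707200, held 109 and 34 reads with 2.21 (1.49 to 3.35). The third, from 102709401 to 102717200, held 202 and 68 reads with 2.05 (1.55 to 2.74). The fourth, from 102718201 to 102720200, was the narrowest and had the highest scaled fold, 3.16 (1.67 to 6.49), from 55 and 12 reads. The last, from 102721001 to 102747200, was the widest Hox region, at 26.2 kb, with 831 ChIP and 278 input reads and 2.06 (1.80 to 2.37). All intervals of this chain lay above 1 and overlapped each other.

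**Figure D4:**
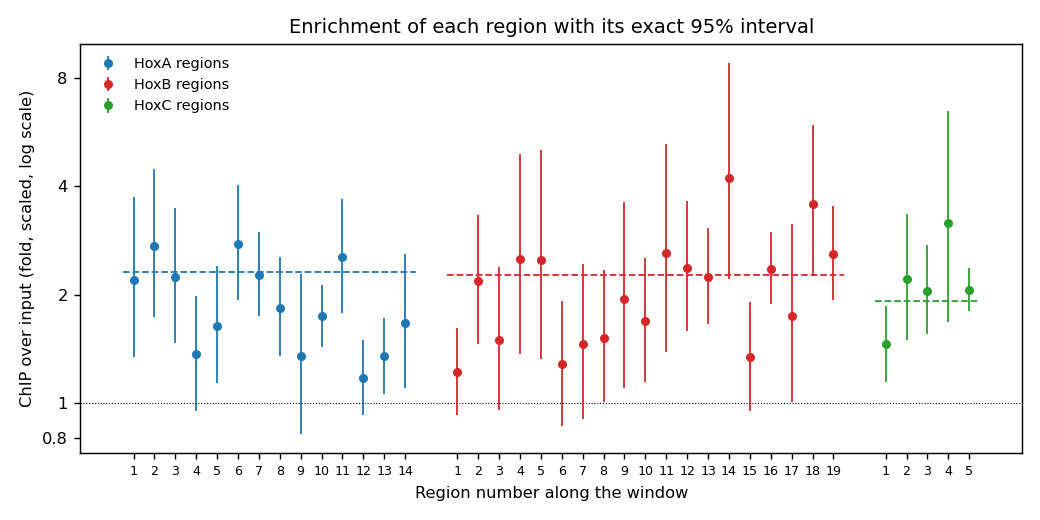
Scaled fold of ChIP over input (y axis, log scale) of each region in the HoxA, HoxB and HoxC windows, numbered along the window (x axis), with exact 95% intervals for counting error. Dashed lines give the median region of the same chromosome and the dotted line marks 1; 8 of the 38 intervals include 1, as do 14.6% over all regions of the list.

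The member genes are described from the RefSeq annotation of GRCm38, in which all 38 were found. These positions are in another build and were not carried over to the regions. In HoxA the members from Hoxa2 to Hoxa13 extended over 98.5 kb of chromosome 6, from 52162417 to 52260880. Hoxa2 patterns the hindbrain and the skeleton of the second pharyngeal arch, Hoxa3 is needed for the thymus and parathyroid, Hoxa5 acts in lung and the neck, and Hoxa10, Hoxa11 and Hoxa13 act in the limb and the reproductive tract. Hoxa4, Hoxa6, Hoxa7 and Hoxa9 lie between them. In HoxB the members from Hoxb13 to Hoxb1 extended over 173.9 kb of chromosome 11, from 96194316 to 96368254. Hoxb1 specifies hindbrain segment identity, Hoxb2, Hoxb3 and Hoxb4 also act in the hindbrain, Hoxb5, Hoxb6, Hoxb7, Hoxb8 and Hoxb9 are used further back along the neck and trunk, and Hoxb13, at a distance from the others, acts in the tail and prostate.

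In HoxC the members from Hoxc13 to Hoxc4 extended over 115.7 kb of chromosome 15, from 102921131 to 103036856. Hoxc13 acts in hair and nails, Hoxc9, Hoxc10 and Hoxc11 in the lower trunk and hindlimb, and Hoxc4, Hoxc5, Hoxc6 and Hoxc8 in the neck and thorax, while Hoxc12 lies next to Hoxc13. In HoxD the members from Hoxd13 to Hoxd1 extended over 96.9 kb of chromosome 2, from 74668225 to 74765142. Hoxd9, Hoxd10, Hoxd11, Hoxd12 and Hoxd13 act in the limb, with Hoxd13 in the digits, and Hoxd1, Hoxd3, Hoxd4 and Hoxd8 are expressed along the trunk and neural tube. Set side by side, the region-free stretches in mm9 were longer than the spans of the members in GRCm38 for HoxA (122.2 against 98.5 kb), HoxC (212.4 against 115.7 kb) and HoxD (516.8 against 96.9 kb), and shorter for HoxB (39 against 173.9 kb). Whether the genes lie inside the stretches was not determined.

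The spans share sequence features that the windows did not use. Of the HoxA span 13.4% was marked as repeats in GRCm38, against a median of 31.8% over windows of the same length on chromosome 6, and 7 of 1481 windows had less. The HoxD span had 14.4% against a median of 29.9%, with 13 of 1833 windows lower, and the HoxC span 15.9% against 31.2%, with 16 of 866 lower. The HoxB span was less unusual, at 24.6% against 29.5%, with 169 of 680 windows lower. All 4 spans were rich in G and C, at 50.0% in HoxA, 48.9% in HoxB, 49.0% in HoxC and 49.4% in HoxD, against chromosome medians of 40.7, 43.8, 41.1 and 41.4%. Base composition and repeats affect how reads are amplified and placed, and their part in the calls was not tested.

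Promoters were available from RefSeq (GRCm38.p6) for 22 members, 9 of HoxA, 3 of HoxB, 1 of HoxC and 9 of HoxD. Over the 250 bases before the start, they held a median of 12 CG dinucleotides (2 to 35), against a median of 6 over the 27025 genes with a promoter in the table, with quartiles at 2 and 16. The start is that given with the promoter, and for Hoxb8, Hoxc4 and Hoxd10 these bases lie inside the annotated gene span. At least 1 CG, the letters C and G in this order, which read the same on both strands, was found in all 22 members and in 91.7% of all genes. The counts were highest in the posterior genes Hoxa13, with 35, and Hoxd13, with 31, and lowest in Hoxd11, with 2, and Hoxa9 and Hoxd4, with 3 each.

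Promoters of a pair of related genes from HoxA and HoxD and of a pair from HoxB and HoxC are shown for comparison, each as the 250 bases before the start, 5′ to 3′, with CG in capitals. Hoxa9 lies at chr6:52227371-52227620 on the minus strand and has 3 CG, while its counterpart Hoxd9 at chr2:74697513-74697762 on the plus strand has 13. Hoxb4 at chr11:96318017-96318266 on the plus strand has 14 and Hoxc4 at chr15:103034145-103034394 on the plus strand has 8. The Hoxc4 bases lie inside its annotated span, from 103018097 to 103036856, and not before it. The sequences differ in their CG content within each pair, and no region of the list was placed on any of them.
Hoxa9: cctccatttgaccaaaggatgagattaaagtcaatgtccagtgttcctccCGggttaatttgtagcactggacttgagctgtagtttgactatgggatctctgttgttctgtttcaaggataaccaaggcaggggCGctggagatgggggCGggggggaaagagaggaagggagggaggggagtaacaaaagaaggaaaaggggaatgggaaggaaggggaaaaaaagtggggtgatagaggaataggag
Hoxd9: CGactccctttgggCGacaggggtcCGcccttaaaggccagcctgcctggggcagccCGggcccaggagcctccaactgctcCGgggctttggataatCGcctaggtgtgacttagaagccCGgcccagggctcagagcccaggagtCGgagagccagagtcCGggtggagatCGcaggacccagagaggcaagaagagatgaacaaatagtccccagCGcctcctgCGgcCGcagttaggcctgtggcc
Hoxb4: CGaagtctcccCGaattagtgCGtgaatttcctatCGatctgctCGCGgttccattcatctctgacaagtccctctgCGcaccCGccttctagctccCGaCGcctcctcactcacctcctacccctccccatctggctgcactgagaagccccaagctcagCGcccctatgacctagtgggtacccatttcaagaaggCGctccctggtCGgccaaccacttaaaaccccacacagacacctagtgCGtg
Hoxc4: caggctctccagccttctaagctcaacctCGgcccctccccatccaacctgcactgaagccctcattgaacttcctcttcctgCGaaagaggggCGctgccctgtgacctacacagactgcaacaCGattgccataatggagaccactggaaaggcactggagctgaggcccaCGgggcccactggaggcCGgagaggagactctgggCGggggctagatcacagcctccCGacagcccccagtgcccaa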

How the data were processed

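ChIP-seq for macroH2A1.1 and input chromatin from C2C12 cells were analysed from the deposited region list, with 1 library each. According to the study's methods, the authors trimmed the reads, aligned them to mm9 with Bowtie2 2.0.6 (also in the submitters' processing notes) and called broad regions with SICER, while the list carries the name of epic, its re-implementation. Starts and widths in the list are multiples of 200 bp and the shortest separation is 800 bp, both smaller than the window and gap that the methods state, and the settings used for the list are therefore uncertain. The deposited counts are unscaled reads of each library per region. The deposited log2 fold change is ChIP over input after scaling by 1 library factor (1.45 for every region with input reads), and the deposited score is a multiple of it. The FDR, up to 0.0499, was given by the authors' caller. The p-value column was not used.

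The members and windows were chosen with earlier results of these data known. Starts in the list count from 0 and ends are inclusive, and positions are printed 1-based. Covered length, widths, summed reads, exact intervals, comparison windows and bins of 25 kb were computed with Python 3.11.15, numpy 2.4.6, pandas 2.3.3 and scipy 1.17.1, and figures drawn with matplotlib 3.10.9. The covered-length and binomial code was tested on simulated data, without the selection by reads that formed the list. Regions named were the widest, the highest and lowest in raw ratio (among those with more than 3 input reads) and the longest stretch per window. Where a window held 5 or fewer regions all were named. Chosen after their values were seen were the first region after the HoxA stretch and the regions around the HoxD stretch. Repeats are the lower-case bases of GRCm38, over windows with at least 90% called bases. The gene overlaps planned for an annotation of mm9 were not run.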

Additional observations from a re-analysis of the deposited data

How the results depend on the processing

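Of 73 recomputed values, 45 stayed within their interval or within 1.5 times the count, and 28 moved. HoxD is not among them, since the alternatives could only leave it at 0. The intervals used here took steps of 200 bp as independent for covered shares and windows as independent for ranks. Those for median widths were taken from the ordered widths. Neighbouring steps and windows are not independent, so staying or moving is a rough guide and not a test. At an FDR of 0.01 the HoxA window was covered at 28.3%. With regions of 2-fold or more, the covered share was 11.13% in HoxA, 16.3% in HoxB and 16.6% in HoxC, which turned the order of these windows around. In HoxA and HoxB the number of regions was then 6 and 10, and the raw ratio 3.53 and 3.64, and the share of comparison windows with less coverage fell to 86.1% for HoxA (93.95% as listed) and rose to 83.9% for HoxC (55.5% as listed). With the exact binomial test, HoxA was covered at 26.6% with a raw ratio of 2.80, and HoxB at 21.5% with 3.29. In windows narrowed by 50 kb at both ends, the covered share was 24.6% in HoxA, 16.2% in HoxB and 0 in HoxC, and the number of regions 7, 10 and 0. The raw ratio and width of HoxC could then not be computed. Joining regions within 10 kb left 4, 7 and 1 regions with median widths of 14700, 9600 and 192200 bp. The joined region of HoxC lay mostly before its window, from -145 to 47.2 kb relative to the window start. Among comparison windows with a region, the share with less coverage was 89.4% for HoxA, 83.0% for HoxB and 41.5% for HoxC. Filters remove weak regions, joining widens regions and narrowing drops the window edges.

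Ratio and width have no value for HoxD. The file gives reads within regions only, so the depth in region-free stretches is unknown and a missing call there does not show that macroH2A1.1 was absent. No paired analysis was possible because only 1 ChIP and 1 input library were analysed here. Overlaps with member genes were not run.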
